A study of Mus musculus with 15 samples.

Results

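RNA-Seq counts of 10 genes of bile acid synthesis, transport and signalling were followed through 15 mouse libraries. The members were taken by name from the deposited table of counts, and all 10 were found among its 23589 named loci. By role they were the enzymes Cyp7a1, Cyp8b1, Cyp27a1 and Baat, the transporters Abcb11, Slc10a1 and Slc10a2, and the regulators Nr0b2, Nr1h4 and Fgf15. The libraries came from male C57BL/6 mice, and covered liver, colon (intestinal mucosa), epididymal fat, hypothalamus and hippocampus under 3 feeding regimens. AL mice were fed ad libitum and were 5 months old. DR mice received 60% of the AL intake for 1 month from 4 months of age and were also 5 months old. DR-AL mice had the same month of DR, were then fed AL for 2 months, and were 7 months old, so refeeding and age cannot be told apart in any comparison with that group. RNA of 5 mice was pooled into each library, giving 1 library per tissue and diet.

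Bile acids are made from cholesterol in hepatocytes, conjugated to an amino acid, and pumped across the canalicular membrane into bile. They aid fat absorption in the small intestine, are taken up again mainly in the ileum, and return to hepatocytes through the portal blood. The bile acid receptor Fxr, encoded by Nr1h4, closes the loop: it induces the repressor Nr0b2 (Shp) in liver and the hormone Fgf15 in ileum, and both lower Cyp7a1.

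Each library held 21767088 to 40500130 counts on named loci, with a median of 26554699. Levels are given in CPM, counts scaled to a total of 1000000 on named loci. With 1 library per tissue and diet, no diet difference has a replicate check. A gene was called between 2 libraries when the Z test on square-root counts of the study's methods passed an adjusted threshold of 0.05 and the change reached the smallest fold change that those methods accept. Such a call compares 2 libraries of pooled RNA and not the diets. All intervals are 95% and cover counting error only. The 3 comparisons within a tissue share libraries and are not independent of each other. Of 12 hepatocyte markers, 11 were abundant in each liver library, with a summed level of 65996 to 69128 CPM. Alb was listed at 0 in all 15 libraries. Single markers differed between the liver libraries, and on DR against AL 2 of the 11 were called higher and 3 lower. Serpina1e, for example, had 144553 counts on AL, 7668 on DR and 108578 on DR-AL in liver. The 12 markers summed to 52.4 to 64.0 CPM in colon. In fat they summed to 15894 CPM on AL, 5304 CPM on DR and 4122 CPM on DR-AL, so the fat libraries are treated last and apart. Cyp2e1 alone gave most of each fat sum, and nearly all of it on DR and DR-AL. In those 2 libraries every other marker stood at 0.302% of its liver level or less.

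Upstream sequence is shown for 3 members that moved differently in the restricted liver: Cyp8b1, which was lower on DR, Abcb11, which was higher, and the Fxr target Nr0b2, which was not called. Each run is the 250 bases before the RefSeq transcription start in GRCm38.p6, read 5′ to 3′ on the gene's own strand. RefSeq windows were found for 7 of the 10 members, and Cyp7a1, Fgf15 and Baat had no entry.

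Cyp8b1, chr9:121916306-121916555, minus strand: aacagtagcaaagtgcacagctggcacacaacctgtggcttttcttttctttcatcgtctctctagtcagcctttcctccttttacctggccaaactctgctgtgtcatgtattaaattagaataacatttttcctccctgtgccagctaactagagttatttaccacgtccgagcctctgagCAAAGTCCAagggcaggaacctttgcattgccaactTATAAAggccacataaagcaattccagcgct

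Abcb11, chr2:69342617-69342866, minus strand: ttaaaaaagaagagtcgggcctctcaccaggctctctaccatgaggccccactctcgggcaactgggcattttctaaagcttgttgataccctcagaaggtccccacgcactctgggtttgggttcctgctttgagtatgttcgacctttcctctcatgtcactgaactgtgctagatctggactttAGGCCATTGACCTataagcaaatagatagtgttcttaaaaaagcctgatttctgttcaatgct

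Nr0b2, chr4:133553126-133553375, plus strand: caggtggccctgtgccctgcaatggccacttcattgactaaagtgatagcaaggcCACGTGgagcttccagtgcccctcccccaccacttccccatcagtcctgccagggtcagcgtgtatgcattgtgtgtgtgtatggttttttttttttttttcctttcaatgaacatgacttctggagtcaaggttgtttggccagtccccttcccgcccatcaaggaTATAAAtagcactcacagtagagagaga

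In the Cyp8b1 window the capitals mark CAAAGTCCA, an element bound by Hnf4a, which starts 67 bases before the start, and a TATAAA box at 31 bases. In the Abcb11 window they mark a stretch at 63 bases that matches, with at most 1 base different, the inverted repeat of AGGTCA with 1 base between its arms, the type of site that Fxr is known to bind. In the Nr0b2 window they mark a TATAAA box at 28 bases and the E-box CACGTG at 195 bases, a site of clock factors. Searched on both strands in 32841 promoter windows of the same length, CAAAGTCCA was found in 0.384%, the inverted repeat with at most 1 base different in 0.0792%, TATAAA in 12.4% and CACGTG in 6.02%. The half-site AGGTCA, which overlaps the inverted repeat, was in 14.0% of windows and in those of Abcb11, Slc10a1 and Nr1h4. These matches are descriptions of letters and were not tested for binding.

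In the liver, the clearest difference with diet was in Cyp8b1, which was 6.63-fold lower on DR than on AL and was near the AL level on DR-AL. Its neighbour at the head of the pathway, Cyp7a1, stayed within 1.06-fold in every liver comparison of counts. The transporters Abcb11, Slc10a1 and Slc10a2 were all higher on DR. Between DR and AL, 4 of the 9 members with counts in liver were called, 3 up and 1 down, against 28.0% of the 17408 genes tested. The median log2 fold change of the 9 was 0.11, beside 0.08 over the 12823 genes that averaged 10 counts or more. At a fold change of at least 2, 1 of the 9 was called, against 8.31% of genes.

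**Figure D1:**
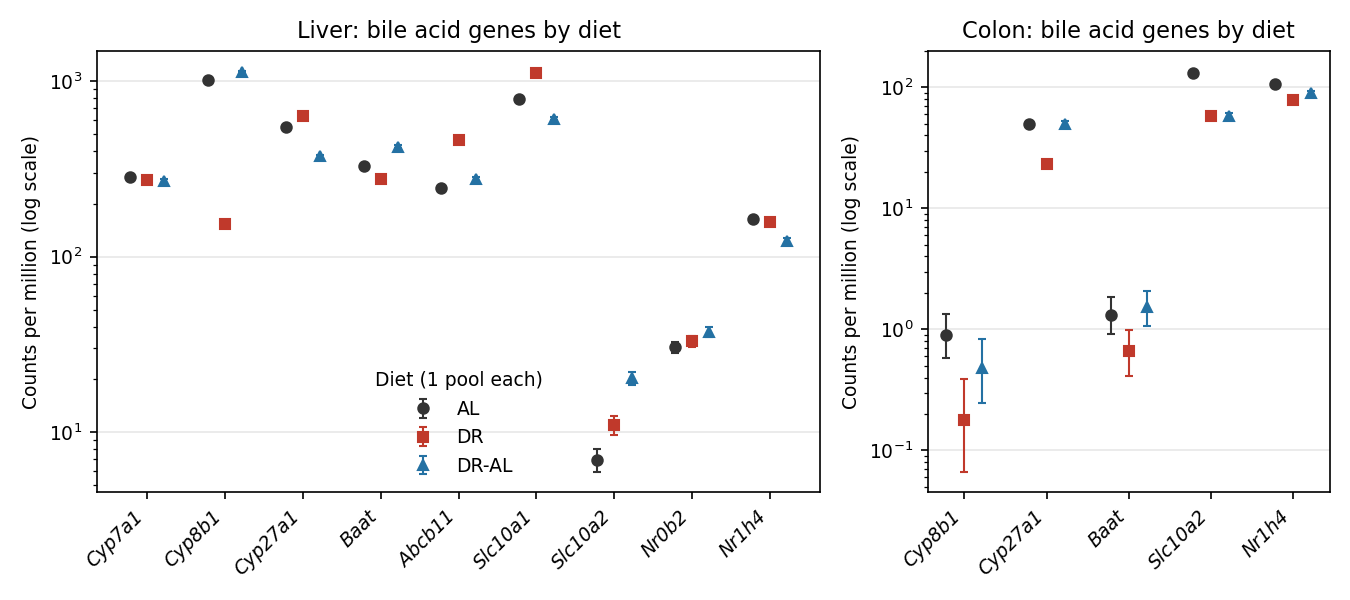
Levels (CPM) of bile acid genes in liver (left) and colon (right) on a log axis, with 1 point per pooled library (AL circles, DR squares, DR-AL triangles) and 95% counting intervals as bars. Liver Cyp8b1 drops from 1014 CPM on AL to 153 CPM on DR and stands at 1130 CPM on DR-AL, while Cyp7a1 stays between 269 and 285 CPM; colon members under 10 counts on average are left out.

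Cyp7a1, the rate-limiting enzyme of the classical pathway (GRCm38 chr4:6265612-6275633), had 7061 counts on AL, 5958 on DR and 6589 on DR-AL in liver. In CPM these were 285, 274 and 269, so the 3 libraries lay close together on this scale. In FPKM the gene stood at 110.1, 89.9 and 108.3, with DR the lowest. The log2 fold change was -0.06 for DR against AL (interval -0.11 to -0.01) and -0.09 for DR-AL against AL (interval -0.13 to -0.04), and neither was called.

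Cyp8b1, the sterol hydroxylase that directs synthesis towards cholic acid (chr9:121914356-121916305), had 25071 counts on AL, 3328 on DR and 27676 on DR-AL. These correspond to 1014, 153 and 1130 CPM, and only the DR library was low. The gene fell by 2.73 on the log2 scale from AL to DR (interval -2.78 to -2.68), and 28 of those 12823 genes had a lower value. From DR to DR-AL it rose 7.39-fold, with a log2 fold change of 2.89 (interval 2.83 to 2.94), and 54 genes had a higher value. Between DR-AL and AL the log2 difference of 0.16 was under the fold required. Cyp8b1 was the member that also passed an exact test with a dispersion estimated over the 3 liver libraries without regard to diet, both in DR against AL and in DR-AL against DR.

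Because both genes are counted in each library, the ratio of Cyp8b1 to Cyp7a1 does not depend on the scaling. It was 3.55 on AL (interval 3.46 to 3.65), 0.559 on DR (0.535 to 0.583) and 4.20 on DR-AL (4.09 to 4.32). Per length of transcript, in FPKM, Cyp8b1 stood 9.91 times above Cyp7a1 on AL, 1.66 times on DR and 11.6 times on DR-AL. Both scales put the DR library far below the other two.

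**Figure D2:**
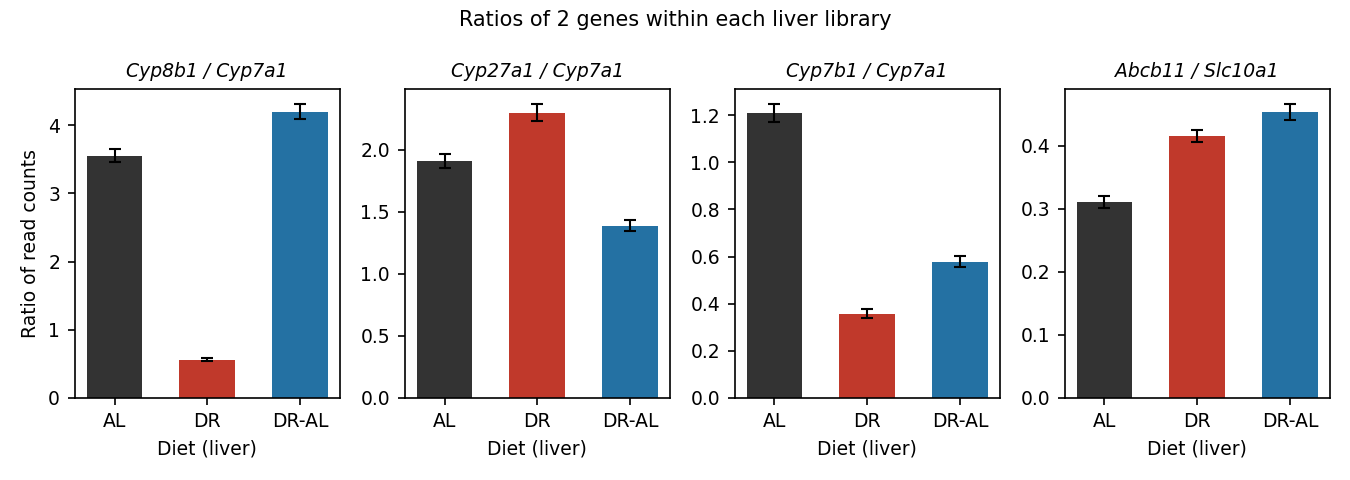
Ratios of read counts of 2 genes within each liver library, as bars from 0 with 95% counting intervals. Cyp8b1 to Cyp7a1 drops to 0.559 on DR and returns to 4.20 on DR-AL, and Cyp7b1 to Cyp7a1 is highest on AL at 1.21.

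The other synthesis enzymes moved less. Cyp27a1, the mitochondrial sterol hydroxylase that opens the alternative pathway (chr1:74713574-74737892), stood at 545 CPM on AL, 630 CPM on DR and 373 CPM on DR-AL, so the refed library was the low one. DR against AL (log2 0.21) was not called, whereas DR-AL was 1.46-fold below AL and 1.69-fold below DR. Baat, which conjugates bile acids to taurine or glycine (chr4:49489422-49506557), stood at 329, 277 and 422 CPM in the same order. It was not called between DR and AL (log2 -0.25), and was 1.28-fold above AL and 1.52-fold above DR in the refed library. With DESeq size factors or TMM, however, the DR decrease of Baat passed the fold threshold, at a log2 fold change of -0.34 in both.

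Among the transporters, Abcb11, the canalicular bile salt export pump (chr2:69238282-69342616), had 6045 counts on AL, 10021 on DR and 6779 on DR-AL, or 244, 460 and 277 CPM. It was 1.88-fold higher on DR than on AL (log2 0.91, interval 0.87 to 0.96) and fell 1.66-fold from DR to DR-AL. In DR against AL, 841 of the 12823 genes had a higher fold change. Slc10a1, the basolateral uptake carrier Ntcp (chr12:80953183-80968705), stood at 787, 1109 and 610 CPM. It rose 1.41-fold from AL to DR, and on DR-AL it was 1.29-fold below AL and 1.82-fold below DR, so the refed library ended under the AL level. The count ratio of the exporter Abcb11 to the importer Slc10a1 was 0.310 on AL, 0.415 on DR and 0.453 on DR-AL. In FPKM it was 0.227, 0.412 and 0.343, so AL was lowest on both scales and the order of DR and DR-AL turned with the scale.

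Slc10a2, the sodium-dependent uptake carrier Asbt of ileum and bile ducts (chr8:5083219-5105351), was low in liver, with 171 counts on AL, 238 on DR and 496 on DR-AL. In CPM these were 6.91, 10.9 and 20.2, an order that differed from that of the other transporters, since the refed library was the highest. The gene was 1.58-fold higher on DR than on AL, 2.92-fold higher on DR-AL than on AL, and 1.85-fold higher on DR-AL than on DR. Markers of cholangiocytes, the cells of the bile ducts, summed to 73.1 CPM on AL, 81.4 CPM on DR and 46.0 CPM on DR-AL. The sum was lowest where Slc10a2 was highest, but most of the 6 markers tested were not called. On DR-AL 1 was lower and none higher than on AL (median log2 fold change -0.05). Against DR 2 were lower and none higher (median -0.52). The part of these cells in the level of Slc10a2 was not tested. Fewer cells of a type and less RNA per cell cannot be told apart in such bulk RNA.

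The regulators changed little on DR. Nr1h4, the receptor Fxr (chr10:89454234-89533585), stood at 164 CPM on AL, 157 CPM on DR and 123 CPM on DR-AL. DR against AL (log2 -0.07) was not called, and DR-AL was 1.34-fold below AL and 1.28-fold below DR. The last call rested on the scaling, because with DESeq size factors the log2 difference was -0.24 and missed the fold threshold. Nr0b2, the Fxr-induced repressor Shp (chr4:133553376-133556536), stood at 30.5, 32.9 and 37.2 CPM. It was called in none of the 3 comparisons, with log2 fold changes of 0.11, 0.29 and 0.18. In FPKM it stood at 67.7, 63.8 and 85.8. On that scale DR was below AL, and DR-AL lay further above both than in CPM. Fgf15 (chr7:144896531-144900953) had 0 counts in all 3 liver libraries, which allows up to 0.121 to 0.138 CPM.

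Counted together, 5 of 9 members were called between DR-AL and AL in liver, 2 up and 3 down, against 30.9% of genes. Between DR-AL and DR 7 of 9 were called, 3 up and 4 down, against 40.8% of genes. Cyp8b1, Baat and Slc10a2 rose, and Cyp27a1, Abcb11, Slc10a1 and Nr1h4 fell. The balance of all calls moved with the scaling in DR against AL, where 64.5% of called genes were higher on DR by totals and 50.6% with DESeq size factors. The directions of Cyp8b1, Abcb11, Slc10a1 and Slc10a2 were kept under all scalings tried.

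**Figure D3:**
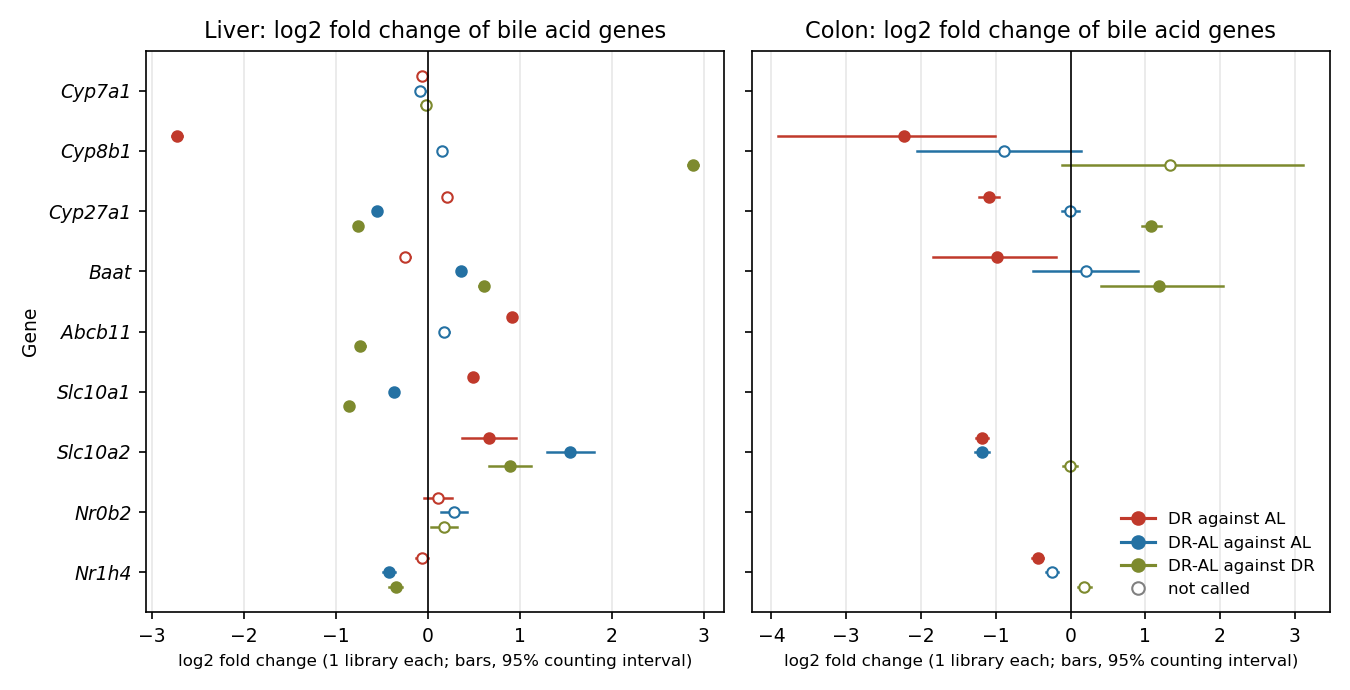
log2 fold changes of bile acid genes in liver (left) and colon (right) for the 3 diet comparisons, with 95% counting intervals as lines; filled points were called and open points were not, and genes with a mean under 10 counts are left out. In liver Cyp8b1 lies at -2.73 and 2.89 while the other members lie within 1.55 of 0; in colon all called values for DR against AL are negative.

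In liver, Cyp7b1, the oxysterol hydroxylase of the alternative pathway, had 8543 counts on AL, 2127 on DR and 3812 on DR-AL, and was 3.53-fold lower on DR. Its ratio to Cyp7a1 was 1.21 on AL, 0.357 on DR and 0.579 on DR-AL. Unlike Cyp8b1, it was still 2.22-fold below AL after refeeding. Cyp2c70, which makes the muricholic acids of mice, had 3217, 8375 and 1172 counts, and was 2.96-fold higher on DR than on AL and 2.72-fold lower on DR-AL than on AL. Cyp39a1, an oxysterol hydroxylase, had 541, 1229 and 955 counts, and was 2.58-fold higher on DR. Cyp46a1, which makes an oxysterol from cholesterol, had 73, 176 and 43 counts and was 2.73-fold higher on DR. By counts, the DR liver library had less of Cyp8b1 and Cyp7b1 and more of Cyp2c70 and Cyp39a1, at a like level of Cyp7a1. Cyp7b1, Cyp2c70 and Cyp39a1 were named for their large fold changes in these same libraries and do not stand for the whole pathway. Between DR and AL none of these 3 genes passed the exact test with a dispersion estimated without regard to diet.

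Of the canalicular lipid pumps, Abcb4, which moves phospholipid into bile, had 11423 counts on AL, 4605 on DR and 11823 on DR-AL. It fell 2.18-fold on DR and rose 2.28-fold on refeeding, a course like that of Cyp8b1 and opposite to that of Abcb11. Abcg5 and Abcg8, whose products form the cholesterol exporter, had 3017, 3730 and 1176 counts and 2857, 3371 and 1282 counts. Both were higher on DR, by 1.40-fold and 1.34-fold, and both were lower on DR-AL than on AL, by 2.54-fold and 2.21-fold. In FPKM, Abcg5 rose from 110.2 to 135 on DR, under the fold required, and Abcb4 stood at 275 on DR and 396 on DR-AL, less of a rise than in counts. Abcb1a, a drug and lipid efflux pump, had 78, 154 and 44 counts and was called in the same directions. Among regulators, Nr1i3, the xenobiotic receptor Car, had 3894, 3071 and 1295 counts and was not called on DR, but was 2.98-fold lower on DR-AL than on AL. Mafg, a repressor of bile acid synthesis genes whose locus carries a merged name, and the coactivator Ppargc1a were 1.37-fold and 1.67-fold higher on DR. In FPKM, Mafg stood at 66.7 on AL and 66.3 on DR, so the increase in counts was not seen in FPKM. S1pr2, a receptor for conjugated bile acids, had 102, 54 and 97 counts and was 1.66-fold lower on DR.

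These genes were named by a rule from a list of 57 further pathway genes, of which 54 had a row at 53 distinct loci. In liver 52 of these loci were tested. Between DR and AL 13 were higher and 13 lower, 50% in all beside 28.0% of genes, with a median log2 fold change of -0.08. Between DR-AL and AL 3 were higher and 17 lower (38.5% beside 30.9%), and between DR-AL and DR 14 were higher and 16 lower (57.7% beside 40.8%). By role, 12 of 18 synthesis loci were called between DR and AL, 5 up and 7 down, and 7 of 15 transport loci and 7 of 19 signalling loci were. The differences between the roles were not tested.

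Other features of the liver libraries moved with diet beside these genes. Of 11 clock genes measured, 7 were higher and 2 lower on DR than on AL, and 3 were higher and 8 lower on DR-AL than on DR. Arntl had 64 counts on AL, 7 on DR and 211 on DR-AL, and Dbp had 1417, 2758 and 411. Of 8 pericentral hepatocyte markers, whose sum was 20431 CPM on AL, 17438 CPM on DR and 12202 CPM on DR-AL, 5 were lower and none higher on DR-AL than on AL. Of 8 periportal markers, with sums of 8861, 7383 and 6477 CPM, 2 were lower and none higher in the same comparison. The part of clock phase or liver zone in the member differences was not tested.

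In the colon, Slc10a2, Cyp27a1, Nr1h4, Cyp8b1 and Baat were lower on DR than on AL, and Slc10a2 was still low after refeeding. Between DR and AL 5 of 9 members with counts were called, all of them down, against 19.7% of the 18242 genes tested in either direction and 10.6% that were called down. At a fold change of at least 2, 3 of the 9 were called, against 5.73% of genes. Only 5 members averaged at least 10 counts in colon, with a median log2 fold change of -1.09 beside 0.01 over all such genes.

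Slc10a2 had 3515 counts on AL, 1953 on DR and 1458 on DR-AL in colon, or 132, 58.4 and 58.2 CPM. It was 2.27-fold lower on DR than on AL (log2 -1.18, interval -1.26 to -1.10) and again 2.27-fold lower on DR-AL than on AL (log2 -1.18, interval -1.27 to -1.10). By counts the DR and DR-AL libraries did not separate, with a log2 difference of -0.01 and an interval from -0.10 to 0.09. In FPKM the gene stood at 36.6 on AL, 13.9 on DR and 17.4 on DR-AL. On that scale both were below AL, and DR-AL was above DR. In DR-AL against AL, 251 of the 13714 genes that averaged 10 counts or more had a lower fold change. The decrease on DR was the member call in colon that also passed the exact test with a dispersion estimated without regard to diet.

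Cyp27a1 followed another course, with 1321, 782 and 1241 counts, or 49.7, 23.4 and 49.6 CPM. It was 2.13-fold lower on DR than on AL, and the DR-AL library was back at the AL level, with a log2 difference of -0.01 (interval -0.12 to 0.11). Nr1h4 was, per length, the most abundant member in colon, with 59.6 FPKM on AL, 42.4 on DR and 52.4 on DR-AL, and stood at 107, 79.1 and 90.0 CPM. It was 1.36-fold lower on DR than on AL and was not called in either comparison with DR-AL.

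The remaining members were near the limit of detection in colon. Cyp8b1 had 24, 6 and 12 counts and was called lower on DR, and Baat had 35, 22 and 38 counts and was called lower on DR and higher again on DR-AL. An opposite-strand locus named Baat had 106, 153 and 101 counts in colon, more than Baat itself, so the assignment of its reads there is uncertain. Abcb11 had 10, 6 and 7 counts and Slc10a1 10, 11 and 7, with no call. Cyp7a1 had 2, 2 and 0 counts and Nr0b2 0, 1 and 0. Fgf15, the hormone of the ileum, had 0 counts in all 3 colon libraries, which allows up to 0.0898 to 0.120 CPM.

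Between DR-AL and AL, 1 of 9 colon members was called, Slc10a2, against 14.3% of genes, and between DR-AL and DR 2 were called, Cyp27a1 and Baat, both up, against 14.5% of genes. The first share was near the background.

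The basolateral partners of Slc10a2 in enterocytes are Slc51a and Slc51b, the subunits of the exporter Ost. Slc51a had 1775 counts on AL, 559 on DR and 737 on DR-AL in colon, and Slc51b had 955, 661 and 613. They were 3.99-fold and 1.82-fold lower on DR, and 2.27-fold and 1.47-fold lower on DR-AL than on AL, so both subunits and the uptake carrier were below AL in both libraries. Abcc2, an apical exporter of conjugates whose locus carries a merged name, had 129, 214 and 51 counts and was higher on DR and lower on DR-AL. Fabp1, a cytosolic binding protein, had 65, 56 and 36 counts and was called lower between DR-AL and AL.

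Among peroxisomal enzymes that shorten the side chain, Acox2 had 163, 75 and 61 counts and was 2.72-fold lower on DR, and Hsd17b4 was 1.30-fold lower. Slc27a2, an acyl-CoA synthetase, had 399, 171 and 321 counts and was 2.93-fold lower on DR and 2.50-fold higher again on DR-AL. The fatty acid receptor Ppara had 1552, 1047 and 678 counts, and was 1.87-fold lower on DR and 2.16-fold lower on DR-AL. The endodermal factor Foxa2 (592, 1267 and 764 counts) and Klb, the co-receptor of Fgf15 (426, 734 and 450 counts), were 1.70-fold and 1.37-fold higher on DR. In all, of 53 loci of the pathway list tested in colon, 7 were higher and 11 lower on DR than on AL (34.0% beside 19.7% of genes), and 6 and 12 between DR-AL and AL (34.0% beside 14.3%). Between DR-AL and DR they were 5 and 5, or 18.9% beside 14.5% of genes.

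Some region and cell type markers also differed between the colon libraries. The 11 colon epithelium markers summed to 39262 CPM on AL, 37592 CPM on DR and 39897 CPM on DR-AL. Of these, 1 was higher and 3 were lower on DR than on AL (median log2 fold change 0.01). Of 14 ileal or small intestinal enterocyte markers, Lct was at 0 to 1 count. That list summed to 1287 CPM on AL, 802 CPM on DR and 886 CPM on DR-AL. On DR 5 of its genes were called lower and none higher, and the median log2 fold change of the 14 was -0.05. Sis had 271, 76 and 121 counts and Alpi 2301, 1073 and 915, but Fabp6, the ileal bile acid binding protein, had 69, 118 and 78. Of 6 genes that differ along the colon 4 were higher on DR, such as Hoxb13 with 8356, 15283 and 11784 counts, and 1 was lower, Retnlb with 1106, 159 and 316. Of 7 Paneth cell markers 4 were at 0, all of them Defa genes, and the list summed to 132.0 CPM on AL, 26.5 CPM on DR and 49.4 CPM on DR-AL, with 3 of 3 tested called lower on DR. Of 5 smooth muscle markers 3 were higher on DR than on AL and 5 were lower on DR-AL than on either, with sums of 40.6, 57.9 and 20.4 CPM. Of 7 adipocyte markers 6 were lower on DR than on AL, and the list summed to 53.2 CPM on AL, 28.7 CPM on DR and 44.7 CPM on DR-AL, the same order as Cyp27a1. The part of these cells or regions in the changes of Slc10a2 and Cyp27a1 was not tested.

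Liver and colon were compared with edgeR's quasi-likelihood test over 6 libraries, with diet as a term, since each diet gave both tissues. In this test the 3 diets stand in as the 3 libraries of a tissue. Of 9 members tested, 8 were higher in liver and 1, Slc10a2, was higher in colon, against 70.2% of 14165 genes called, 33.7% higher in liver and 36.5% higher in colon. Cyp7a1, Cyp8b1, Slc10a1, Abcb11, Nr0b2 and Baat were separated by log2 differences of 8.93 to 13.04. Nr0b2 had 1 count in colon in all and Cyp7a1 had 4, so their fitted differences depend on the prior count. Cyp27a1 stood at 516 ± 131 CPM in liver and 40.9 ± 15.2 CPM in colon (SD, 3 libraries), a log2 difference of 4.38 (SE 0.36, adjusted p = 8.88e-06).

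Nr1h4 was the member nearest to equal in both tissues, at 148 ± 22.2 CPM in liver and 92.1 ± 14.2 CPM in colon (SD, 3 libraries). Its log2 difference was 1.37 (SE 0.18, edgeR adjusted p = 0.000166), and with all 15 libraries in the fit it was no longer called (adjusted p = 0.109). Slc10a2 stood at 12.7 ± 6.84 CPM in liver and 83.0 ± 42.7 CPM in colon (SD, 3 libraries), a log2 difference of -2.01 (SE 0.51, edgeR adjusted p = 0.0109). With library totals in place of TMM, an alternative chosen after seeing the data, the median of all genes moved from -0.06 to -0.75 on the log2 scale. The differences then were 3.70 for Cyp27a1, 0.68 for Nr1h4 and -2.70 for Slc10a2, and all 9 members were called in the same direction. The call of Slc10a2 was lost without the filter on low counts (adjusted p = 0.105) and without the DR libraries (adjusted p = 0.312). Its colon level was 1915% of its liver level on AL, 534% on DR and 288% on DR-AL, so the tissues lay closest on DR-AL.

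In the fat libraries, Cyp7a1, Cyp8b1, Baat, Abcb11, Slc10a1 and Nr0b2 were present on AL and had 22 counts or fewer on DR and DR-AL. Cyp8b1 had 3713 counts on AL, 11 on DR and 6 on DR-AL. Slc10a1 had 3934, 19 and 2 counts, Cyp7a1 1677, 7 and 5, and Baat 1270, 6 and 2. Abcb11 had 745, 22 and 18 counts, Nr1h4 816, 64 and 34, and Nr0b2 53, 1 and 5. By the same rule 9 of 10 members were called down on DR, against 45.6% of 20382 genes called in either direction and 10.4% called down. On DR-AL against AL 8 of 10 were down, against 57.9% and 11.9%. Most hepatocyte markers of no role in bile acid metabolism had the same course, for example Ttr with 12348, 247 and 20 counts and Ahsg with 33766, 222 and 41. Cyp2e1 did not, with 227711, 119637 and 112244 counts.

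Expressed as a share of the level in the liver library of the same diet, 9 members stood at 6.63% to 30.4% in AL fat, with a median of 18.8%, and 11 hepatocyte markers at 7.98% to 55.2%, with a median of 12.1%. On DR the medians were 0.209% and 0.131%, and on DR-AL 0.238% and 0.0206%. The highest marker in each fat library was Cyp2e1, at 43.0% of its liver level on DR and 45.8% on DR-AL. Whether liver tissue or fat cells gave the reads of the AL library was not tested. Adipocyte markers summed to 31466 CPM on AL, 24958 CPM on DR and 19848 CPM on DR-AL.

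**Figure D4:**
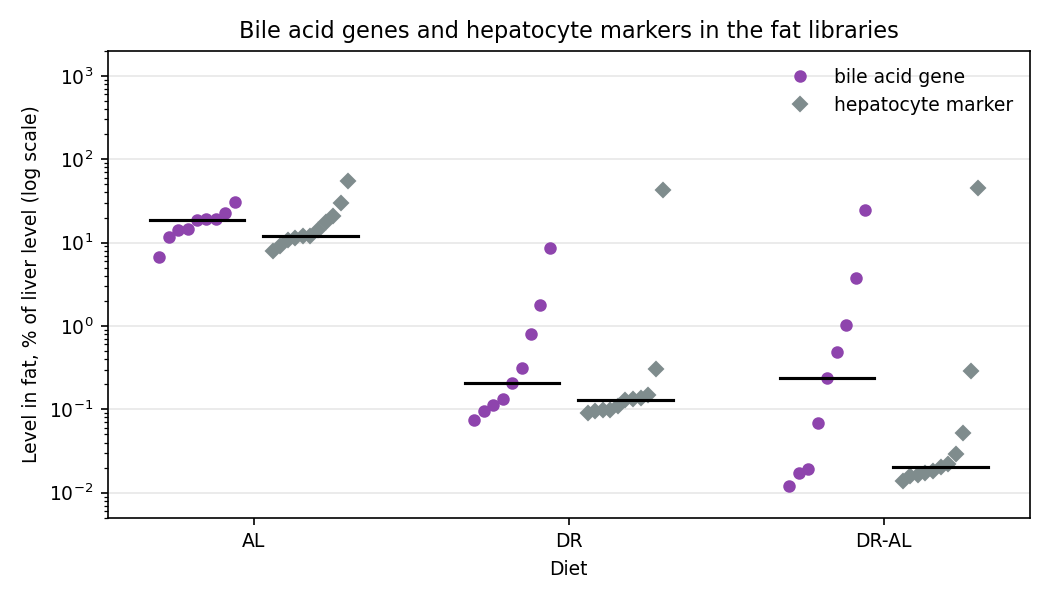
Levels of 9 bile acid genes (circles) and 11 hepatocyte markers (diamonds) in the fat libraries as a percentage of the level in the liver library of the same diet, on a log axis; black lines are medians. On AL the groups overlap, at 6.63% to 30.4% for bile acid genes (median 18.8%) and 7.98% to 55.2% for markers (median 12.1%). Most genes of both lie under 1% on DR and DR-AL. Cyp27a1 (8.67% and 24.6%) and the marker Cyp2e1 stay high.

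Cyp27a1 was the member that stayed well expressed in every fat library, with 4341 counts on AL, 1246 on DR and 2507 on DR-AL, or 166, 54.6 and 91.6 CPM. DR-AL against DR does not involve the AL library, and there 4 of 10 members were called, 2 up and 2 down, against 51.6% of genes. Cyp27a1 was 1.68-fold higher and Slc10a2 went from 2 to 21 counts, while Nr1h4 and Slc10a1 were lower. The rise of Cyp27a1 was kept under the 3 other scalings of the counts tried, and in the authors' FPKM the log2 difference was -0.10. The median gene of the fat libraries moved by 0.24 to 0.34 on the log2 scale when counts were scaled by totals and by 0.00 to 0.09 with DESeq size factors, and the share of called genes that were higher was 77.3% against 61.2% for DR against AL.

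In the brain regions, Cyp27a1 was the member with the most counts. In hypothalamus it had 295 counts on AL, 291 on DR and 270 on DR-AL, and was not called. In hippocampus it had 110, 52 and 69 counts, was 1.63-fold lower on DR than on AL, and was called higher on DR-AL than on DR. Fgf15 was detected mainly in hypothalamus, with 15 counts on AL, 6 on DR and 22 on DR-AL, and was called higher on DR-AL than on DR. The other members had at most 9 counts in any brain library. In hypothalamus 0, 0 and 1 of 9 members were called in DR against AL, DR-AL against AL and DR-AL against DR, against 7.05%, 15.1% and 9.62% of genes. In hippocampus 1, 0 and 1 were called, against 4.03%, 6.15% and 4.88%.

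Per length of transcript, the order of the members in liver on AL was Cyp8b1 at 1091 FPKM, Slc10a1 at 882, Cyp27a1 at 586, Baat at 422, Abcb11 at 200.4, Nr1h4 at 161, Cyp7a1 at 110.1, Nr0b2 at 67.7 and Slc10a2 at 3.04 FPKM. On DR, Cyp8b1 dropped from the top to the fifth place at 149 FPKM, next to Nr1h4 at 145 FPKM, and Slc10a1 led at 1178 FPKM with Cyp27a1 next at 620 FPKM. On DR-AL, Cyp8b1 led again at 1254 FPKM. With 1 library per diet, no spread is at hand to separate neighbours in these orders.

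Over the 15 libraries, the genes whose levels were most like those of each member were found by Pearson's r of log2(CPM + 0.5). The search covered 14816 genes reaching at least 10 CPM. It is given as a description in which the tissues with high levels weigh most, liver for most members and colon for Slc10a2. Cyp7a1 was nearest to Itih1 (r = 0.999) and Hgd (0.998), and Cyp8b1 to Serpina1e (0.998) and Cyp4a10 (0.997). Abcb11 was nearest to Cyp2a12 (0.997), Slc10a1 to Acsm1 (0.998), Baat to Cml2 (0.996), Nr0b2 to Sdr9c7 (0.998) and Nr1h4 to Hgfac (0.997). Cyp27a1 was nearest to Nit1 (0.988) and Slc10a2 to the iron exporter Slc40a1 (0.988).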

How the data were processed

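RNA was sequenced from 5 tissues of mice on 3 diets, with 5 mice pooled per library. The authors depleted ribosomal RNA, made stranded paired-end libraries, and aligned and quantified reads with Strand software. The deposited table holds raw counts per locus and FPKM values made by the authors for the same loci. The study's methods name mm10 and the submitters' processing notes mm9 and DESeq2. Only 13.6% of 21384 name-matched loci overlapped their GRCm38 position, so coordinates are from GENCODE M21 (GRCm38).

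Loci without a name, 0.258% to 1.39% of counts, were left out of totals. A locus named for a member on its annotated strand was used. Counts were divided by the total of named loci, compared by the Z test of the methods with Benjamini-Hochberg adjustment over all genes with at least 1 count in the tissue, and called where the adjusted p was under 0.05 and the change 1.25-fold or more. log2 fold changes carry a pseudocount of 0.5 counts, and intervals are exact Clopper-Pearson intervals at 95%. Where a gene had 0 counts, the limit is 3 counts. Liver and colon were compared with edgeR 4.0.16 (quasi-likelihood, TMM, filterByExpr, diet as a term). The test between liver and colon was tried on simulated data, and the promoter search was not. Alternatives were other scalings, DESeq2 1.42.0, filters, fold thresholds, exact tests with an assumed dispersion, and FPKM with pseudocounts of 0.1 and 1. Library totals in place of TMM between liver and colon were added after seeing the data.

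The named pathway genes were, in liver and colon and for each role, the 4 with the largest log2 fold change in any comparison among those with a mean of at least 50 counts. For each member the genes of highest r were listed. Members and lists were chosen with earlier results of these data known.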

Additional observations from a re-analysis of the deposited data

Results flagged for a closer look

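Members that went opposite ways in liver and colon were picked out. Slc10a2 was higher on DR than on AL in liver (log2 fold change 0.66) and lower in colon (-1.18), and likewise for DR-AL against AL (1.55 in liver and -1.18 in colon). Cyp27a1 was lower on DR-AL than on DR in liver (-0.76) and higher in colon (1.08). Each value rests on 1 library per group, and the difference between the tissues was not tested.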

How the results depend on the processing

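The number of members called changed with the fold threshold, the test and the unit. At a 2-fold threshold, with an assumed coefficient of variation of 0.1, and with a dispersion estimated without regard to diet, the calls in liver were 1, 2 and 1 for DR against AL (4 in the report), 1, 1 and 0 for DR-AL against AL (5), and 1, 6 and 1 for DR-AL against DR (7). In colon they were 3, 3 and 1 (5), 1, 1 and 0 (1), and 2, 1 and 0 (2), and in FPKM with a pseudocount of 0.1 the last 2 comparisons gave 4 and 5. In fat the estimated dispersion left 0, 4 and 0 of 9, 8 and 4, and FPKM gave 7 or 1 for DR-AL against DR. In the brain regions FPKM with a pseudocount of 0.1 gave 2, 2, 2, 4 and 3 where the report has 0, 0, 1, 0 and 1, and the single calls went to 0 under the exact tests, the pseudocount of 1 and, in hippocampus, the 2-fold threshold. Of the further pathway genes, the same 3 settings left 6, 16 and 0, then 7, 11 and 0, then 12, 20 and 1 in liver, and 6, 7 and 3, then 7, 4 and 0, then 5, 3 and 2 in colon, where FPKM with a pseudocount of 0.1 gave 30 and 18 in the first and last comparison.

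Members higher in colon than in liver numbered 0 without the filter on low counts and 0 to 1 when the libraries of 1 diet were left out. Without the pairing by diet (no replicate block), 8 members were higher in liver and 1 in colon, as with it, so the block changed no call. In FPKM the ratio of Cyp8b1 to Cyp7a1 was 9.91, 1.66 and 11.6 on AL, DR and DR-AL. Cyp27a1 in fat, DR-AL against DR, reversed to -0.10 in FPKM at both pseudocounts. Depth limits the colon values of Cyp7a1, Cyp8b1, Abcb11, Slc10a1, Nr0b2 and Baat, which rest on 38 counts or fewer per library.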
